A study of Arabidopsis thaliana with 24 samples.

Results

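The dependence of the brassinolide (BL) response on the brassinosteroid (BR) receptors was examined in 24-day-old whole Arabidopsis thaliana seedlings. For each gene, the BL effect in the receptor mutant was set against the BL effect in a hormone-deficient mutant that keeps its receptors. This difference of differences is called the interaction below. It rests on the 12 libraries of the 24-day plants among the 24 of the study, 3 in each of 4 groups: the BL-treated triple mutant, the untreated triple mutant, BL-treated cpd and untreated cpd. The triple mutant carries the bri1-701, brl1 and brl3 alleles, and cpd carries a lesion in the BR biosynthesis gene CPD. The labels name no wild type among these groups, so the cpd response is the only receptor-bearing response here, and it is the response of plants short of the hormone. Neither the BL dose nor the treatment time is given in the sources used here. The other 12 libraries hold the same 4 groups at 7 days.

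Brassinosteroids are plant steroid hormones that promote cell elongation, and BL is the most active of them. BRI1, a receptor kinase of the cell surface, binds BL together with co-receptors such as BAK1, and BRL1 and BRL3 are related receptors found mainly in vascular tissue. Receptor activation shuts off the kinase BIN2, and the transcription factors BZR1 and BES1 then accumulate in the nucleus. These factors raise genes of growth and the cell wall, and they lower genes of BR synthesis, a negative feedback.

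Of 19731 genes tested, 657 (3.33%) had a higher interaction and 548 (2.78%) a lower one, by the quasi-likelihood test of edgeR at a Benjamini-Hochberg adjusted p of 0.05, with the replicate number as a block. A lower interaction means that the BL effect was lower in the triple mutant than in cpd, and a higher interaction the reverse. Among the higher ones 219 reached 2-fold and 49 reached 4-fold, and among the lower ones 202 and 50 did. Of the genes tested, 131 met the low-count filter only through BL-treated cpd, which favours a lower interaction. How many of these are among the lower ones is not given here, so the lower counts are in part set by the filter. Without the block 314 (1.59%) were higher and 229 (1.16%) were lower, and all of them were among the genes called with it. Interaction counts fell as low as 330 higher and 237 lower when a single library was left out, both without replicate 3 of the BL-treated triple mutant.

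The genes called lay close to no change with BL in the triple mutant and away from it in cpd. The 548 genes with a lower interaction had a median log2 BL effect of -0.13 in the triple mutant (interquartile range -0.29 to -0.04) and of 0.67 in cpd (0.46 to 1.01). The 657 with a higher interaction had a median of 0.07 in the triple mutant (-0.04 to 0.17) and of -0.72 in cpd (-1.08 to -0.50). The absolute BL effect was the larger in the triple mutant for 38 of the 548 and 12 of the 657. These medians describe genes picked by the same contrast, and for some lower ones also by the low-count filter, and carry no test of their own.

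**Figure D1:**
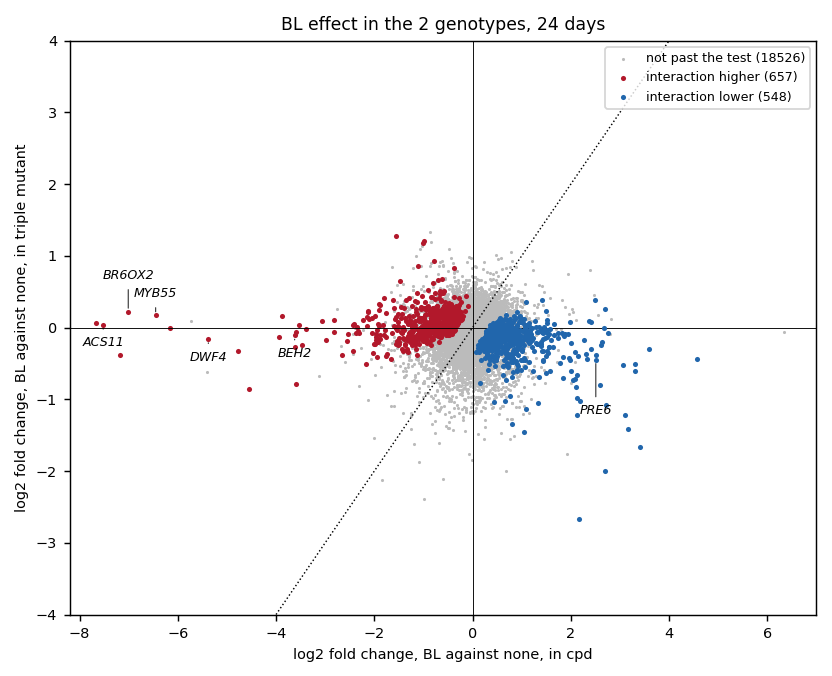
Each point is 1 of the genes tested at 24 days, with its log2 fold change (BL against none) in cpd on the x axis and in the triple mutant on the y axis; the dotted line marks equal effects. The 657 red and 548 blue genes passed the interaction test and spread along the x axis, with ACS11 at -7.52, while the middle 50% of both sets lie within -0.29 to 0.17 on the y axis.

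No gene passed the edgeR test for BL in the triple mutant (0 higher and 0 lower, smallest adjusted p 0.647), whereas 1476 genes (7.48%) were higher and 1574 (7.98%) lower with BL in cpd. At an unadjusted p under 0.05, 1488 genes differed in the triple mutant and 5913 in cpd. limma-voom also called none in the triple mutant, and DESeq2 called 0 higher and 5 lower. The 5 were SRG3, AT3G48450, TPPI, AT5G19100 and SUS1, a sucrose synthase, with DESeq2 log2 changes of -0.51 to -1.12 and edgeR adjusted p = 0.647 for each. SUS1 was the 1 of them that passed the interaction test, at -0.92 (edgeR adjusted p = 0.0464).

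Among all genes that responded to BL in cpd, the share with the same sign in the triple mutant lay within 2 percentage points of the share over all genes. The BL effect in the triple mutant had the sign seen in cpd for 48.2% of the 1476 genes that rose in cpd and for 49.7% of the 1574 that fell, against 49.1% and 50.9% of all genes tested with those signs. For the 205 genes that rose at least 2-fold in cpd (median log2 1.40) the median in the triple mutant was -0.13, and 28.3% had a positive effect. That share was 41.0% without replicate 2 of the untreated triple mutant and 47.3% without replicate 2 of every group, and the median was then -0.04 and -0.02. For the 277 that fell at least 2-fold in cpd (median -1.37) the median in the triple mutant was -0.08, and 63.2% had a negative effect. The genotypes share no library in these shares, but they share the normalisation and the block. Genes that met the low-count filter only through BL-treated cpd can be among the 1476 and the 205, and they were not set apart.

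The mutated genes and ABI4, the factor in the series title, were read first, as counts scaled to the normalised library total (CPM). BRI1 (AT4G39400, chromosome 4) had 73.97, 59.4 and 78.6 CPM in the BL-treated triple mutant and 68.9, 60.7 and 66.2 CPM in the untreated triple mutant, against 118, 107 and 114 CPM in BL-treated cpd and 278, 257 and 277 CPM in untreated cpd. BRL3 (AT3G13380, chromosome 3) had 3.56, 3.74 and 3.07 CPM in the BL-treated triple mutant and 5.45, 3.88 and 3.45 CPM in the untreated triple mutant, against 7.45, 11.2 and 7.66 CPM in BL-treated cpd and 26.6, 21.2 and 23.6 CPM in untreated cpd. BRL1 (AT1G55610, chromosome 1) had 5.13, 3.798 and 4.81 CPM in the BL-treated triple mutant and 5.03, 5.29 and 5.28 CPM in the untreated triple mutant, against 7.29, 7.41 and 6.41 CPM in BL-treated cpd and 10.8, 11.3 and 14.1 CPM in untreated cpd. All 3 receptor genes were lower in every triple mutant library than in every cpd library. Transcript was still counted for each, which says nothing on working receptor. CPD (AT5G05690, chromosome 5) had 411, 353 and 379 CPM in the BL-treated triple mutant and 399, 330.3 and 412 CPM in the untreated triple mutant, against 20.9, 19.7 and 25.8 CPM in BL-treated cpd and 119, 111 and 108 CPM in untreated cpd, lower in every cpd library. For ABI4 (AT2G40220, chromosome 2) all 12 libraries gave 0 counts, and the limit this sets is 0.146 to 0.174 CPM per library.

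The receptor genes also differed in their BL effect, although the values of the triple mutant come from the mutated loci themselves. The log2 BL effect on BRI1 was 0.11 ± 0.07 (SE) in the triple mutant and -1.26 ± 0.07 in cpd. The interaction was 1.37 ± 0.10 (SE, edgeR adjusted p = 4.71e-05). BRL3 had an interaction of 1.15 ± 0.27 (SE, edgeR adjusted p = 0.0348), with adjusted p = 0.057 without the block. BRL1 had 0.59 ± 0.21 (SE, edgeR adjusted p = 0.126) and did not pass. BRL3 overlaps a neighbouring gene, so its counts can hold reads of that gene.

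Of 7 genes of BR biosynthesis 6 had a higher interaction and none a lower one (5 without the block), against 3.33% and 2.78% of all genes. Their median log2 interaction was 2.81, against -0.01 for all genes, made up of a median BL effect of -0.16 in the triple mutant and -2.99 in cpd. BR6OX2 (AT3G30180, chromosome 3), the P450 that makes BL from castasterone, had 284, 216 and 288 CPM in the BL-treated triple mutant and 222, 177 and 282 CPM in the untreated triple mutant, against 1.37, 1.79 and 2.23 CPM in BL-treated cpd and 304, 159 and 249 CPM in untreated cpd. The BL-treated cpd libraries lay far below all others, and the treated and untreated triple mutant overlapped. Its log2 interaction was 7.22 ± 0.25 (SE, edgeR adjusted p = 3.35e-07). DWF4 (AT3G50660, chromosome 3), the hydroxylase of the rate-limiting step, had 68.8, 59.7 and 65.6 CPM with BL and 64.1, 77.1 and 74.97 CPM without it in the triple mutant, and 1.22, 1.69 and 1.58 CPM with BL and 75.8, 52.1 and 61.5 CPM without it in cpd. Its interaction was 5.22 ± 0.23 (SE, edgeR adjusted p = 1.23e-06), and again the only group apart from the rest was BL-treated cpd.

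ROT3 (AT4G36380, chromosome 4) and CYP90D1 (AT3G13730, chromosome 3) are P450s with a shared hydroxylation step. ROT3 had 37.8, 39.7 and 33.99 CPM with BL and 40.3, 51.9 and 42.6 CPM without it in the triple mutant, and 3.28, 2.13 and 3.97 CPM with BL and 43.9, 33.7 and 36.1 CPM without it in cpd. Its interaction was 3.33 ± 0.25 (SE, edgeR adjusted p = 6.09e-05), and its BL-treated triple mutant libraries all lay below the untreated ones by a margin that did not pass the BL test (log2 -0.28 ± 0.16, SE). In that mutant 3.24% of all genes had every BL-treated library below every untreated one. CYP90D1 had 36.99, 37.3 and 32.2 CPM with BL and 40.7, 47.8 and 36.1 CPM without it in the triple mutant, and 7.61, 8.33 and 7.56 CPM with BL and 33.8, 29.03 and 31.99 CPM without it in cpd, an interaction of 1.79 ± 0.14 (SE, edgeR adjusted p = 7.77e-05). The disrupted CPD gene itself had an interaction of 2.36 ± 0.13 (SE, edgeR adjusted p = 5.17e-06), from a log2 BL effect of 0.01 ± 0.09 (SE) in the triple mutant and -2.36 ± 0.10 in cpd. CPD and ROT3 each overlap another annotated gene.

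BR6OX1 (AT5G38970, chromosome 5), a further oxidase of the pathway, was near the detection limit, at 0.234 to 0.629 CPM with BL and 0.294 to 0.651 CPM without it in the triple mutant, and 0.0484 to 0.0544 CPM with BL and 0.295 to 0.783 CPM without it in cpd. Its interaction was 2.81 ± 0.72 (SE, edgeR adjusted p = 0.0472), and adjusted p = 0.114 without the block. DET2 (AT2G38050, chromosome 2), a reductase of an early step, was the member that did not pass, at 0.17 ± 0.11 (SE, edgeR adjusted p = 0.407). It had 18.6, 20.04 and 18.9 CPM with BL and 20.7, 19.99 and 20.7 CPM without it in the triple mutant, and 14.6, 16.2 and 16.2 CPM with BL and 17.4, 18.7 and 20.7 CPM without it in cpd.

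Of 6 tested genes of BR inactivation 1 passed, against 6.11% of all genes in either direction. BAS1 (AT2G26710, chromosome 2), a P450 that hydroxylates and thereby inactivates BRs, had 5.19, 3.91 and 7.06 CPM in the BL-treated triple mutant and 7.04, 2.88 and 7.82 CPM in the untreated triple mutant, against 45.01, 30.6 and 37.6 CPM in BL-treated cpd and 8.41, 10.7 and 11.7 CPM in untreated cpd. BL-treated cpd was above every other library, and the triple mutant groups overlapped. The interaction was -1.98 ± 0.34 (SE, edgeR adjusted p = 0.00807). The other 5 had log2 interactions of -1.01 to -0.07, and the list median was -0.91.

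**Figure D2:**
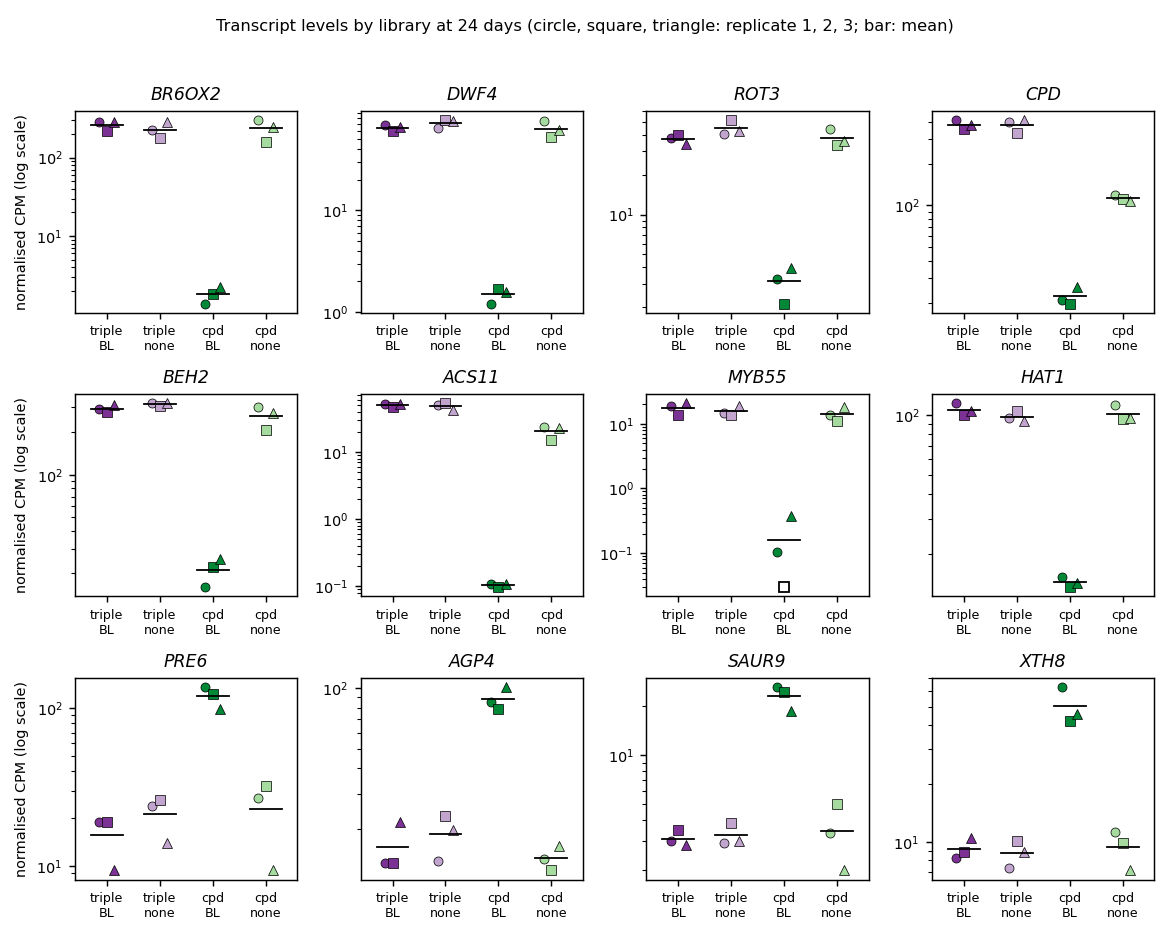
Normalised CPM (log y axis, scale differs by panel) of 12 genes in each of the 12 libraries, grouped as BL-treated and untreated triple mutant, then BL-treated and untreated cpd; bars are means of 3 libraries and the open square of MYB55 is a library with 0 counts drawn at 0.03. In the upper 8 panels BL-treated cpd lies below the other groups, and in the lower 4 it lies above them.

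Among 18 tested genes of BR signalling 4 were higher and 1 was lower (3 and 1 without the block), against 3.33% and 2.78% of all genes. The list median was 0. The 4 include BRI1 and BRL3, whose values in the triple mutant come from the mutated loci. The members that passed were receptors and transcription factors, but the receptor BRL1 and the factors BZR1, BEH3 and BEH4 did not pass. BEH2 (AT4G36780, chromosome 4), a homologue of BZR1 and BES1, had 294, 277 and 312 CPM in the BL-treated triple mutant and 320.2, 308 and 321 CPM in the untreated triple mutant, against 16.01, 22.03 and 25.4 CPM in BL-treated cpd and 301, 208 and 274 CPM in untreated cpd. BL-treated cpd was the low group, and the interaction was 3.52 ± 0.21 (SE, edgeR adjusted p = 9.09e-06). BEH1 (AT3G50750, chromosome 3), another homologue, was at 1.16 ± 0.15 (SE, edgeR adjusted p = 0.00207), with 27.4, 25.9 and 21.4 CPM with BL and 25.9, 24.9 and 28.1 CPM without it in the triple mutant, and 13.7, 14.7 and 11.4 CPM with BL and 34.1, 33.7 and 26.8 CPM without it in cpd. BES1 (AT1G19350, chromosome 1) went the other way, at -0.96 ± 0.13 (SE, edgeR adjusted p = 0.00207), with 120.5, 104 and 104 CPM with BL and 123, 124 and 104 CPM without it in the triple mutant, and 173, 178 and 195 CPM with BL and 97.3, 101 and 101 CPM without it in cpd.

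The tested kinases and adaptors between receptor and factors did not pass either, nor did the co-receptor BAK1. BIN2 had 359.7, 366 and 377 CPM with BL and 388, 377 and 409 CPM without it in the triple mutant, and 439.5, 408 and 409 CPM with BL and 406, 383 and 379 CPM without it in cpd, a log2 interaction of -0.20 ± 0.09 (SE, edgeR adjusted p = 0.246). BAK1 was at 0.10 (edgeR adjusted p = 0.622), BSK1 at 0.21 (0.453) and BKI1, an inhibitor of BRI1, at 0.36 (0.264). Among the factors BZR1 was at -0.26 (edgeR adjusted p = 0.101), BEH3 at -0.26 (0.432) and BEH4 at -0.17 (0.451). Missing the threshold does not show that these genes responded alike in the genotypes.

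The positions of known BR motifs were read from the bases before the annotated gene starts, because BZR1 and BES1 bind them. Motifs were searched on both strands: the G-box CACGTG, the E-box CANNTG, which contains the G-box, and the BR response element CGTGTG or CGTGCG, which can overlap a G-box. The 4 promoters below are those among the 45 named and tested genes with a G-box or a BR response element in the 250 bases before the start (RefSeq annotation, TAIR10.1, read 5′ to 3′ toward the gene). Over all 19202 genes with a promoter read, 6.99% held a BR response element and 7.42% a G-box. The windows of the other named genes, among them BR6OX2, DWF4, CPD, ROT3, HAT1 and MYB55, held neither. Capitals mark G-boxes and BR response elements on either strand. BEH2 lies at chr4:17334356-17334605 on the minus strand, ACS11 at chr4:4886712-4886961 on the plus strand, ABI5 at chr2:15207637-15207886 on the minus strand and XTH8 at chr1:3880392-3880641 on the minus strand.
BEH2: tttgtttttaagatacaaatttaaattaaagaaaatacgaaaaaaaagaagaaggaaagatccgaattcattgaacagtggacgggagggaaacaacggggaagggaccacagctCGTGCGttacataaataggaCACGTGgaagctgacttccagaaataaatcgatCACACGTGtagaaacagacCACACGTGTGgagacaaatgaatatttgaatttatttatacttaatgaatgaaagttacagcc
ACS11: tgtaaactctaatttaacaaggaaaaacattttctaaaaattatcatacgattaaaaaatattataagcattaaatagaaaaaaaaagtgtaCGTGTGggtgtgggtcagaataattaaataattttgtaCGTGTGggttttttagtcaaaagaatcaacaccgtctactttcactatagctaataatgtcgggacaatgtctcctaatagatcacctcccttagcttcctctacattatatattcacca
ABI5: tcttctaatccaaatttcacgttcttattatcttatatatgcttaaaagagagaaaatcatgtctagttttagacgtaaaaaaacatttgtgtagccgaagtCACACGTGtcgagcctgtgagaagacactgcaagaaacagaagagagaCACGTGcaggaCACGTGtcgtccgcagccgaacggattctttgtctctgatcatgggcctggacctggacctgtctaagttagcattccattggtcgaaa
XTH8: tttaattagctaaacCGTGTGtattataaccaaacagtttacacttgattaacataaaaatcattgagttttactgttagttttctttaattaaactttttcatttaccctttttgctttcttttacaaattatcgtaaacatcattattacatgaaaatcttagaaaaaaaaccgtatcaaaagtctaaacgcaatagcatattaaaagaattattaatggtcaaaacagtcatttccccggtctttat
BEH2, ACS11 and ABI5 had a higher interaction, and XTH8 a lower one. The BEH2 window holds 3 G-boxes, 3 CGTGTG and 1 CGTGCG. ACS11 holds 2 CGTGTG, ABI5 3 G-boxes and 1 CGTGTG, and XTH8 1 CGTGTG.

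Over all called genes, a BR response element was found before 11.4% of 641 genes with a higher interaction (95% exact binomial interval 9.03 to 14.1), 4.81% of 541 with a lower interaction (3.16 to 6.96) and 6.99% of all 19202 with a promoter read (6.63 to 7.36). The G-box was found before 9.67%, 5.73% and 7.42% of these sets, and the E-box before 60.5%, 63.0% and 56.1%. In the nearest 150 bases the shares with a BR response element were 9.52%, 3.88% and 4.86%. These shares are descriptions of letters and carry no test, and the windows of neighbouring genes can overlap.

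Of 20 SAUR genes, whose small proteins promote cell expansion, 15 had a lower interaction and none a higher one, and 8 passed without the block. Of all genes 2.78% had a lower interaction, and 1.16% did without the block. Their median interaction was -2.74, with median BL effects of -0.07 in the triple mutant and 2.63 in cpd. The lower calls were 2, 7 and 12 without replicate 1, 2 and 3 of every group. In all 20 the BL-treated cpd libraries lay above the untreated ones, as they did for 16.7% of all genes tested. In the triple mutant the treated and untreated libraries overlapped in all 20, as for 91.9% of all genes. SAUR10, SAUR15, SAUR20, SAUR61 and SAUR68 met the low-count filter only through BL-treated cpd, so they had to differ there. The first 3 of these are among the 15, and the counts and median over the list are a description.

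SAUR9 (AT4G36110, chromosome 4) had 2.99, 3.51 and 2.82 CPM in the BL-treated triple mutant and 2.901, 3.88 and 2.99 CPM in the untreated triple mutant, against 25.99, 24.3 and 18.6 CPM in BL-treated cpd and 3.36, 5.01 and 1.98 CPM in untreated cpd. Its interaction was -2.83 ± 0.28 (SE, edgeR adjusted p = 0.000312). SAUR15 had 0.2096, 0.409 and 0.205 CPM with BL and 0.533, 0.529 and 0.203 CPM without it in the triple mutant, and 6.34, 6.004 and 2.94 CPM with BL and 0.525, 0.933 and 0.104 CPM without it in cpd, values that are a description for the reason above. SAUR22 (AT5G18050, chromosome 5) was at -2.80 ± 0.35 (SE, edgeR adjusted p = 0.00138), with 1.47, 0.935 and 1.33 CPM with BL and 2.72, 2.12 and 1.42 CPM without it in the triple mutant, and 12.6, 9.64 and 12.3 CPM with BL and 2.73, 3.29 and 2.09 CPM without it in cpd. The SAUR19 to SAUR24 genes are near-identical copies, as are SAUR61 to SAUR68, and the sources used here do not give how shared reads were counted, so single values of those genes are uncertain.

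Among 11 tested helix-loop-helix and PIF factors of growth 4 were lower and 1 was higher, against 2.78% and 3.33% of all genes. PRE6 (AT1G26945, chromosome 1) promotes elongation by binding inhibitory partners, and it had 19.1, 18.9 and 9.42 CPM in the BL-treated triple mutant and 23.9, 26.2 and 13.96 CPM in the untreated triple mutant, against 137, 124 and 98.2 CPM in BL-treated cpd and 27.1, 32.1 and 9.34 CPM in untreated cpd. BL-treated cpd lay above all other libraries, replicate 3 was the lowest in each group, and the interaction was -2.96 ± 0.28 (SE, edgeR adjusted p = 0.000287). PRE5, a close homologue, had 0.2096, 0.292 and 0.154 CPM with BL and 0.355, 0.588 and 0.355 CPM without it in the triple mutant, and 2.06, 2.13 and 1.63 CPM with BL and 0.473, 0.5895 and 0.261 CPM without it in cpd, and it met the low-count filter only through BL-treated cpd, so its call, 1 of the 4, is a description. The growth-promoting bHLH factors BEE1 and HBI1 were at -1.20 ± 0.17 (SE, edgeR adjusted p = 0.00254) and -0.55 ± 0.13 (SE, edgeR adjusted p = 0.0293), and neither passed without the block (adjusted p = 0.157 and 0.0647). IBH1 (AT2G43060, chromosome 2), an inhibitor of elongation that PRE proteins bind, had 53.8, 52.5 and 45.97 CPM in the BL-treated triple mutant and 45.6, 44.2 and 49.8 CPM in the untreated triple mutant, against 20.9, 19.7 and 21.6 CPM in BL-treated cpd and 60.99, 66.03 and 58.2 CPM in untreated cpd. It had the higher interaction, at 1.70 ± 0.12 (SE, edgeR adjusted p = 4.18e-05).

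Cell wall genes differed in both directions. Among 18 tested expansins and xyloglucan endotransglucosylase/hydrolases (XTH), wall-loosening and wall-remodelling proteins, 7 were lower and 2 higher, against 2.78% and 3.33% of all genes. XTH17 is 1 of the 7 and met the low-count filter only through BL-treated cpd. XTH8 (AT1G11545, chromosome 1) had 8.22, 8.88 and 10.5 CPM in the BL-treated triple mutant and 7.28, 10.11 and 8.83 CPM in the untreated triple mutant, against 63.2, 42.1 and 45.6 CPM in BL-treated cpd and 11.2, 9.87 and 7.098 CPM in untreated cpd, an interaction of -2.34 ± 0.29 (SE, edgeR adjusted p = 0.00122). XTH4 had 314, 228 and 301 CPM with BL and 271, 230.0 and 265 CPM without it in the triple mutant, and 778, 544 and 634 CPM with BL and 304, 296 and 335 CPM without it in cpd, at -0.92 ± 0.13 (SE, edgeR adjusted p = 0.00322). XTH19 was at -2.93 ± 0.57 (SE, edgeR adjusted p = 0.0144) and adjusted p = 0.055 without the block, with untreated triple mutant libraries as far apart as 25.6, 50.7 and 7.87 CPM. The expansins EXPA11 and EXPA8 were at -1.65 ± 0.25 (SE, edgeR adjusted p = 0.00406) and -2.14 ± 0.35 (SE, edgeR adjusted p = 0.00581).

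XTH15 (AT4G14130, chromosome 4) went the other way, with 1666, 949 and 1769 CPM in the BL-treated triple mutant and 1397, 939.8 and 1566 CPM in the untreated triple mutant, against 421, 256 and 515 CPM in BL-treated cpd and 1562, 1316 and 2286 CPM in untreated cpd. Its interaction was 2.29 ± 0.15 (SE, edgeR adjusted p = 1.94e-05), and it overlaps another annotated gene. XTH24 averaged 1591 ± 236 CPM with BL and 1514 ± 105 CPM without it in the triple mutant, and 712 ± 41.4 CPM with BL and 1394 ± 142 CPM without it in cpd (SD, n = 3 each). Its interaction was 1.03 ± 0.12 (SE, edgeR adjusted p = 0.00105).

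Of 14 tested arabinogalactan proteins and beta-tubulins, wall glycoproteins and subunits of microtubules, 8 were lower, with and without the block. Of all genes 2.78% were lower with the block and 1.16% without it. AGP4 (AT5G10430, chromosome 5) had 13.6, 13.6 and 21.6 CPM in the BL-treated triple mutant and 13.97, 23.2 and 19.9 CPM in the untreated triple mutant, against 85.1, 78.8 and 102 CPM in BL-treated cpd and 14.3, 12.5 and 16.6 CPM in untreated cpd. Its interaction was -2.85 ± 0.23 (SE, edgeR adjusted p = 8.54e-05), and it overlaps another gene. AGP7 and AGP9 were at -1.45 ± 0.12 (SE, edgeR adjusted p = 7.77e-05) and -1.82 ± 0.19 (SE, edgeR adjusted p = 0.000436). TUB1 had 4.35, 3.86 and 4.25 CPM with BL and 3.43, 7.58 and 4.37 CPM without it in the triple mutant, and 24.9, 19.9 and 19.2 CPM with BL and 5.04, 3.49 and 3.497 CPM without it in cpd, at -2.71 ± 0.36 (SE, edgeR adjusted p = 0.00197), and TUB3, TUB5, TUB6 and TUB8 were at -1.20 to -0.50. LRX2, a leucine-rich repeat extensin, and RGF6, a growth-factor peptide, were at -2.62 ± 0.40 (SE, edgeR adjusted p = 0.00444) and -2.37 ± 0.24 (SE, edgeR adjusted p = 0.000351). TUB1 and RGF6 also overlap other annotated genes. Of 8 cellulose synthases 3 were lower, CESA5, CESA2 and CESA1, at -1.18, -0.60 and -0.50, and none passed without the block (adjusted p = 0.0664, 0.0656 and 0.074).

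**Figure D3:**
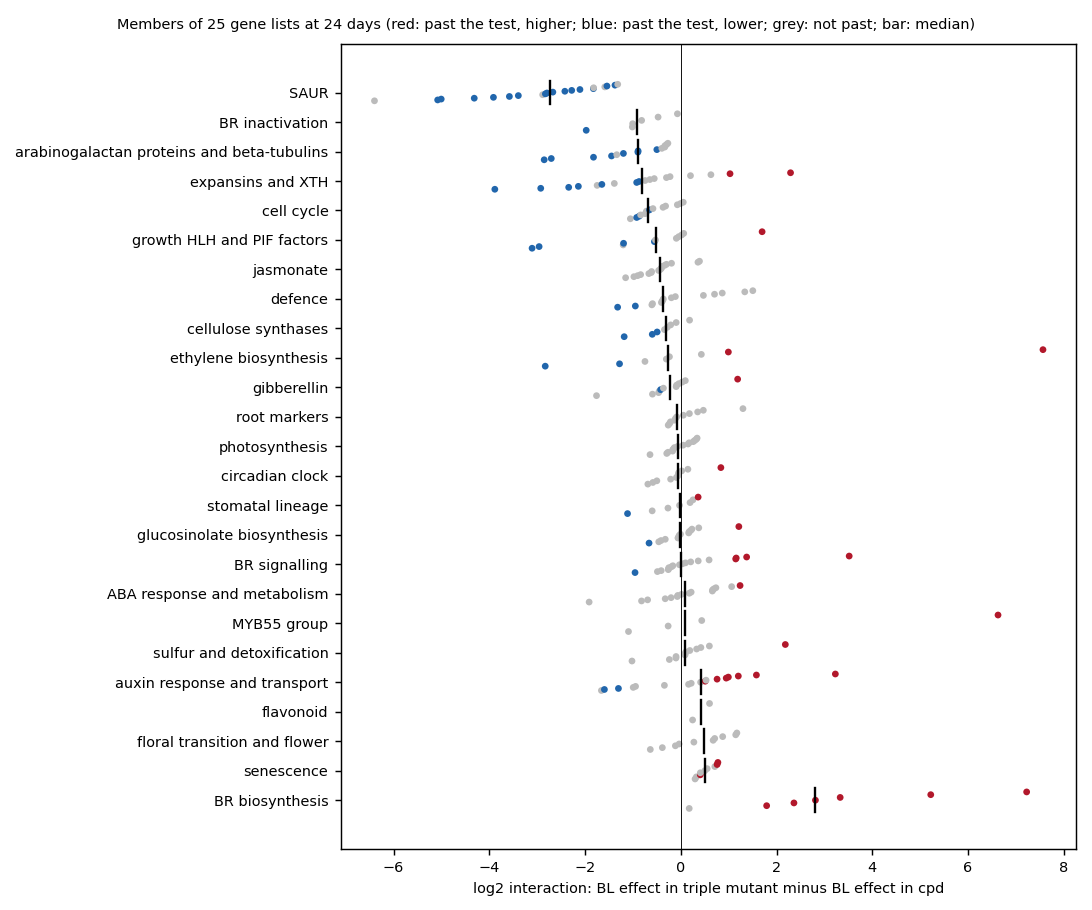
Each point is a tested member of 1 of 25 gene lists, with its log2 interaction on the x axis; colours show members past the test and bars the list medians. BR biosynthesis (median 2.81) and SAUR (median -2.74) lie at the ends, and the jasmonate, photosynthesis, flavonoid, floral and root lists hold no member past the test.

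Among hormone pathways, the auxin list had 7 higher and 2 lower of 17 (5 and 1 without the block), against 3.33% and 2.78% of all genes. GH3.17 (AT1G28130, chromosome 1), an enzyme that couples auxin to an amino acid, had 47.6, 54.2 and 55.02 CPM in the BL-treated triple mutant and 53.8, 58.3 and 74.3 CPM in the untreated triple mutant, against 5.49, 7.31 and 7.07 CPM in BL-treated cpd and 81.4, 73.5 and 64.8 CPM in untreated cpd. Its interaction was 3.23 ± 0.20 (SE, edgeR adjusted p = 1.01e-05), and the related GH3.5 and GH3.6 were at 1.58 ± 0.17 (SE, edgeR adjusted p = 0.000604) and 0.95 ± 0.11 (SE, edgeR adjusted p = 0.000953). The auxin repressor genes IAA2 and IAA7 had higher interactions of 0.99 ± 0.10 (SE, edgeR adjusted p = 0.000287) and 1.20 ± 0.12 (SE, edgeR adjusted p = 0.000287), and IAA19 and IAA3 lower ones of -1.60 ± 0.26 (SE, edgeR adjusted p = 0.00581) and -1.30 ± 0.18 (SE, edgeR adjusted p = 0.00247). The auxin efflux carriers PIN7 and PIN4 were at 0.76 and 0.51, both past the test only with the block (adjusted p = 0.0848 and 0.245 without it). IAA3 also passed only with the block (edgeR adjusted p = 0.0554 without it). HAT1 (AT4G17460, chromosome 4), a homeodomain-leucine zipper factor, had 114, 99.5 and 104 CPM with BL and 96.2, 105 and 93.3 CPM without it in the triple mutant, and 15.3, 13.7 and 14.2 CPM with BL and 112, 95.6 and 96.8 CPM without it in cpd. Its interaction was 2.92 ± 0.11 (SE, edgeR adjusted p = 4.56e-07).

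Ethylene biosynthesis held opposite members of 1 enzyme family. ACS11 (AT4G08040, chromosome 4), an ACC synthase, had 52.3, 46.4 and 52.2 CPM in the BL-treated triple mutant and 50.02, 53.3 and 42.6 CPM in the untreated triple mutant, against 0.106, 0.0968 and 0.109 CPM in BL-treated cpd and 23.4, 15.2 and 22.6 CPM in untreated cpd. The BL-treated cpd libraries hold 6 counts in all, a mean of 0.104 CPM with an exact Poisson interval of 0.038 to 0.225 CPM that covers counting error only. Its interaction was 7.56 ± 0.34 (SE, edgeR adjusted p = 1.23e-06), a size that depends on those few counts. ACS4, another ACC synthase, had 0.838, 0.935 and 0.409 CPM with BL and 1.06, 0.823 and 0.609 CPM without it in the triple mutant, and 7.29, 6.68 and 6.25 CPM with BL and 0.998, 1.57 and 0.731 CPM without it in cpd, an interaction of -2.83 ± 0.40 (SE, edgeR adjusted p = 0.00266). ACO1, an oxidase of the last step, was at -1.28 ± 0.25 (SE, edgeR adjusted p = 0.0149), and adjusted p was 0.274 without the block.

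In the abscisic acid list 1 of 16 passed, against 6.11% of all genes in either direction. It was ABI5 (AT2G36270, chromosome 2), a bZIP factor of the response to that hormone. It had 13.5, 17.4 and 13.97 CPM in the BL-treated triple mutant and 19.3, 13.7 and 17.2 CPM in the untreated triple mutant, against 5.12, 5.57 and 5.76 CPM in BL-treated cpd and 12.8, 13.6 and 17.2 CPM in untreated cpd, and its interaction was 1.24 ± 0.23 (SE, edgeR adjusted p = 0.0108). In the gibberellin list 2 of 12 passed, against the same 6.11%. GASA1, a gibberellin-responsive gene, averaged 463 ± 26 CPM with BL and 385 ± 37 CPM without it in the triple mutant, and 309.5 ± 37.4 CPM with BL and 584 ± 44 CPM without it in cpd (SD, n = 3 each). Its interaction was 1.19 ± 0.14 (SE, edgeR adjusted p = 0.000935), with every BL-treated triple mutant library above every untreated one, as for 4.81% of all genes. The BL effect on GASA1 in the triple mutant did not pass (log2 0.27 ± 0.10, SE, edgeR adjusted p = 0.647). GID1B, a gibberellin receptor, was at -0.42 ± 0.08 (SE, edgeR adjusted p = 0.0148), with log2 BL effects of -0.35 ± 0.06 (SE) in the triple mutant and 0.08 ± 0.06 in cpd. Neither single BL effect of GID1B passed, and the interaction had adjusted p = 0.0659 without the block.

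MYB55 (AT4G01680, chromosome 4), a MYB-family transcription factor, had 19.02, 13.8 and 20.7 CPM in the BL-treated triple mutant and 14.5, 13.9 and 18.9 CPM in the untreated triple mutant, against 0.106, 0 and 0.381 CPM in BL-treated cpd and 13.6, 11.2 and 18.1 CPM in untreated cpd. Its 3 BL-treated cpd libraries hold 9 counts in all, and its interaction was 6.62 ± 0.37 (SE, edgeR adjusted p = 5.17e-06). The other 3 MYB genes listed with it did not pass.

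Genes of senescence, the cell cycle and stomata held a few members past the test each, against 6.11% of all genes in either direction. The senescence factor ORE1 and the chlorophyll breakdown genes NYE1 and PAO were the 3 of 9 past the test, at 0.76, 0.77 and 0.41, all higher. NYE1 did not pass without the block (adjusted p = 0.0509), and none, none and 1 of the 9 passed without replicate 1, 2 and 3 of every group. The replication licensing genes MCM3, MCM5 and MCM2 were the 3 of 14 in the cell cycle list, at -0.92, -0.65 and -0.87, all lower, and only MCM3 passed without the block. SPCH, a factor that starts the stomatal lineage, was at -1.11 ± 0.20 (SE, edgeR adjusted p = 0.00887), with 9.901, 7.65 and 7.27 CPM with BL and 8.88, 10.2 and 9.04 CPM without it in the triple mutant, and 17.4, 15.1 and 16.5 CPM with BL and 8.41, 10.07 and 7.31 CPM without it in cpd. FAMA, a later stomatal factor, was at 0.36 ± 0.09 (SE, edgeR adjusted p = 0.0484) and passed under none of 20 alternatives.

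Summed stomatal marker levels were 64.4 to 76.7 CPM in the BL-treated and 64.9 to 72.7 CPM in the untreated triple mutant, and 81.1 to 86.5 CPM in BL-treated and 77.0 to 81.9 CPM in untreated cpd. Summed root markers were 97.9 to 130.3, 97.0 to 136.5, 101.6 to 131.8 and 86.4 to 132.5 CPM in the same groups, and summed floral markers 78.2 to 91.3, 84.2 to 95.8, 99.7 to 104.7 and 87.3 to 106.2 CPM. No member of these marker lists was at 0 in all libraries. Stomatal marker sums were lower in every triple mutant library than in every cpd library, and their part in the results was not tested. In whole seedlings, fewer cells of a type and less RNA per cell cannot be told apart.

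Other lists held 2, 1 or no members past the test, against 6.11% of all genes in either direction. WRKY18 and WRKY53, defence factors, were at -1.32 and -0.95 (2 of 15, lower), the glucosinolate factors MYB122 and MYB28 at 1.21 and -0.66 (2 of 14), the clock gene ELF4 at 0.84 (1 of 11) and the sulfur-deficiency gene LSU1 at 2.18 (1 of 12). None of these 6 passed without the block (adjusted p from 0.0536 to 0.246). WRKY18 had untreated triple mutant libraries of 144, 319.8 and 93.3 CPM, with replicate 2 far above the others. WRKY53 overlaps another annotated gene. In the jasmonate list 0 of 17 passed by edgeR, 3 had an unadjusted p under 0.05, and 3 were lower without replicate 3 of every group. The list's median log2 BL effect was -0.46 in the triple mutant and 0.01 in cpd, against 0 for all genes in both. Its median interaction was -0.43. No jasmonate member passed the BL test in the triple mutant, and in none did the BL-treated and untreated libraries of that mutant lie apart.

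The named genes were chosen on the interaction in these same libraries, so how they vary over the replicates is a description. Of the 44 named genes that passed, 32 did so whichever single library was left out, and 30 did so without the block.

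**Figure D4:**
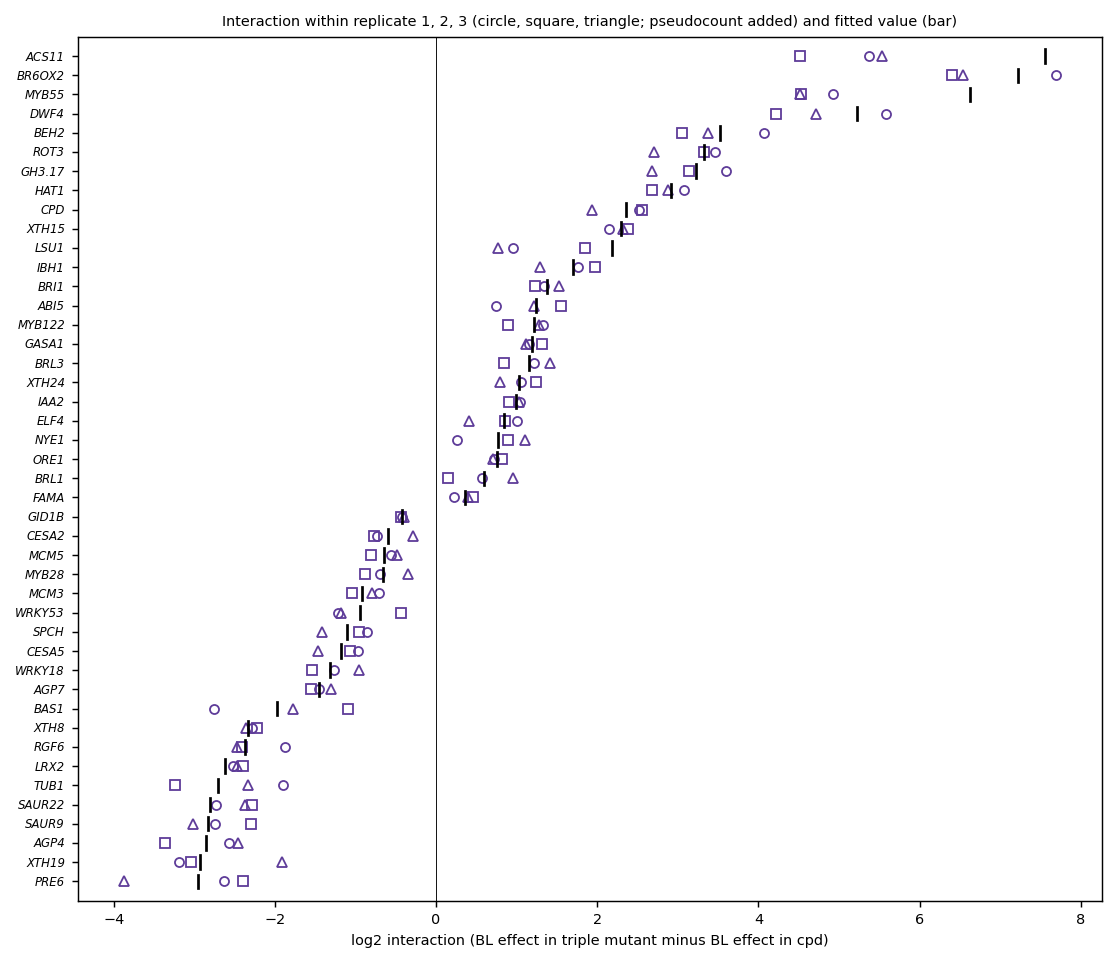
For each of 44 named genes the x axis gives the log2 interaction within replicate 1 (circle), 2 (square) and 3 (triangle), from normalised CPM with 0.5 added, and the fitted value (bar). The 3 symbols of a gene lie on the same side of 0 in all 44, which were chosen on the interaction fitted to these libraries, and for ACS11 and MYB55 the added 0.5 holds them below the bar.

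The 7-day plants gave the same contrast at another age. In a fit of all 24 libraries, the interaction differed between 24 and 7 days in 548 genes that were higher (2.75%) and 911 that were lower (4.57%) at 24 days, of 19935 tested, and in 236 and 371 without the block. BR6OX2 and DWF4 had log2 interactions of 7.22 and 5.22 at 24 days and 6.78 and 5.12 at 7 days, and neither difference passed (edgeR adjusted p = 0.583 and 0.922). HAT1 was at 2.92 and 2.89. Of the 45 named genes 11 differed with age, among them ROT3, at 3.33 at 24 days and 4.90 at 7 days, and GASA1, at 1.19 and -0.04. The named genes were chosen on the 24-day interaction, which enters this difference. This fit uses 1 spread for both ages, a biological coefficient of variation of 8.12%, between 11% at 24 days and 1.95% at 7 days, so its p-values can be too small for the 24-day part.

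**Figure D5:**
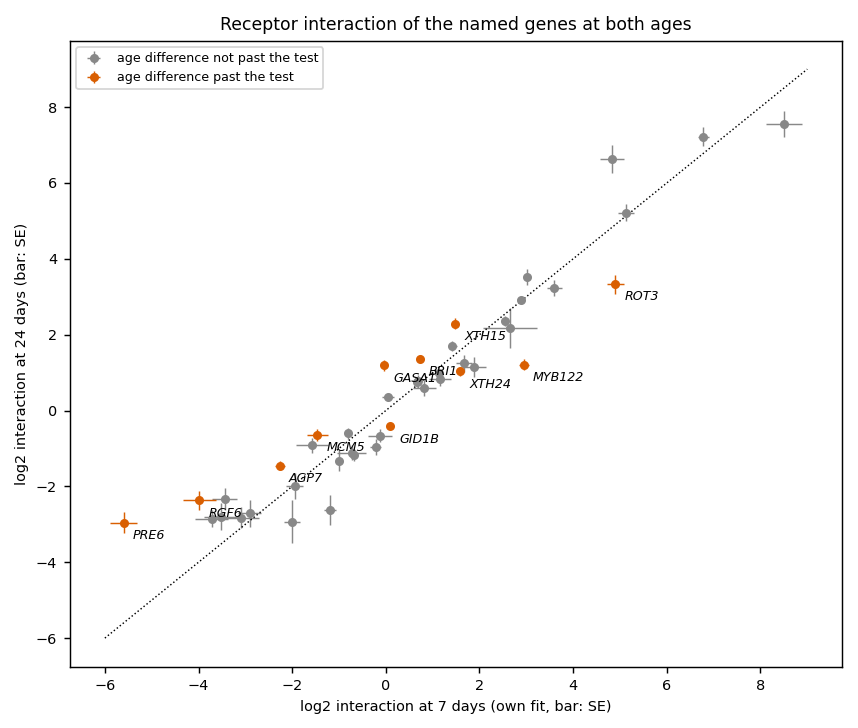
Log2 interaction of the named genes at 24 days (y axis) against 7 days (x axis), with SE bars from the fit of each age; the dotted line marks equal values. Genes in orange passed the test of the age difference, such as ROT3 (3.33 at 24 days and 4.90 at 7 days) and GASA1 (1.19 and -0.04).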

How the data were processed

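Messenger RNA of whole seedlings was sequenced in 24 libraries. The values are read counts per locus, deposited by the authors as whole numbers in 1 table (32678 loci). Trimmomatic 0.36, HISAT2 2.1.0, HTSeq 0.9.1 and TAIR10 come from the submitters' processing notes; the sources used here give no settings, annotation release or strand mode, and a gene that overlaps another can hold its reads. The genotype label spells the first allele brl1-701, and the design text, followed here, bri1-701. Nothing in the labels says that replicates were separate plants, and p-values thus measure only the spread of the libraries. Totals at 24 days were 17243503 to 20563151 counts.

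Counts were normalised with TMM, filtered with filterByExpr (minimum count 10) and tested with edgeR 4.0.16 (R 4.3.3) over the 12 libraries of 24 days, with replicate number as a block; SEs were back-calculated from the test. CPM are counts scaled to the normalised library total. The age difference was fitted on all 24 libraries. DESeq2 1.42.0 and limma 3.58.1 were alternatives, and tests were tried on simulated data, where false calls of the age difference were more frequent than its threshold allows. Floors of 3 counts and intervals cover counting error only. Members and 25 gene lists (323 of 327 members matched, 296 tested) were chosen with earlier results of these data known. Named genes are CPD, BRI1, BRL1, BRL3 and ABI4, the 8 largest interactions each way past the test at a mean of at least 5 CPM with a symbol, and up to 2 members per list by smallest adjusted p; other list members past the test were named after their values were seen. Coordinates and promoters are from RefSeq TAIR10.1. For PRE6, ORE1 and FAMA the reference gives other symbols. The values of 1 named gene are not reported here.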

Additional observations from a re-analysis of the deposited data

Results flagged for a closer look

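For 11 named genes the interaction differed between 24 and 7 days by a test of the difference itself (quasi-likelihood test of edgeR, Benjamini-Hochberg adjusted, 24 days minus 7 days). The difference was 0.67 for BRI1 (adjusted p = 0.00162; 0.0235 without the block), 1.24 for GASA1 (0.000132; 0.00104), -1.57 for ROT3 (0.022; 0.018), -0.5 for GID1B (0.00949; 0.0465) and -1.72 for MYB122 (1.72e-05; 0.0145). For 6 more it passed with the block only. It was 2.68 for PRE6, with interactions of -2.96 at 24 days and -5.60 at 7 days (adjusted p = 0.00445; 0.0856 without the block), and 1.63 for RGF6, with -2.37 and -3.98 (0.0228; 0.0677). AGP7 was at 0.83 (0.00338; 0.168), MCM5 at 0.82 (0.0313; 0.0953), XTH15 at 0.82 (0.00276; 0.385) and XTH24 at -0.55 (0.0104; 0.0744). limma-voom with weights by age passed all 11 (largest adjusted p = 0.0242), but it used the same libraries and is no separate evidence. The named genes were chosen on the 24-day interaction, which enters this difference, so these values are a description. The edgeR fit uses 1 spread for both ages, and its p-values can be too small.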

How the results depend on the processing

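The replicate block decides how many genes pass. Same-numbered libraries deviated together in 16 of 18 pairs with a correlation over 0.1 (0.08 to 0.62, median 0.30). Averaged over the other groups, all 12 libraries correlated best with their own number, but single pairs did not always. Replicate 1 of untreated cpd had 0.146 with replicate 2 and 0.086 with replicate 1 of the BL-treated triple mutant. Other pairs had a median of -0.17, and centring within each group lowers these values whenever same-numbered ones are above 0. The labels do not say what a number shares, so the pairing is a hint from the data. Without the block the interaction counts were 314 higher and 229 lower, the BL effect in cpd 895 and 1023, and the age difference 236 and 371, with BCV 15% in place of 11%. Leaving out a library, or a replicate number in every group, gave 101 to 791 higher and 57 to 773 lower interactions, 297 to 1629 higher and 453 to 1793 lower BL effects in cpd, 0 higher and 0 to 2 lower in the triple mutant, and 338 to 1044 higher and 717 to 1528 lower age differences. The interaction counts moved by over 1.5 times without replicate 1 of untreated cpd (387 higher and 321 lower), replicate 1 of BL-treated cpd (362 and 278), replicate 2 of the untreated triple mutant (430 and 312), and replicates 2 (336 and 244) and 3 (330 and 237) of the BL-treated triple mutant. In 1 direction they did so without replicate 2 of untreated cpd (318 lower), replicate 2 of BL-treated cpd (409 higher), replicate 1 of the untreated triple mutant (360 lower) and replicate 1 of the BL-treated triple mutant (340 lower). The cause was not tested. DESeq2 placed 5 genes lower with BL in the triple mutant. DESeq2 size factors, no filter and limma-voom moved no count by over 1.5 times. None of 900 alternative values of the named genes changed direction, and 23 of the 44 genes that passed did so in all 20 alternatives. Depth limits BR6OX1, ACS11, MYB55, LSU1 (a mean of 0.863 CPM) and low SAUR genes, whose fold rests on few counts.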
